A study of Mus musculus and Callithrix jacchus with 22 samples.

Results

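Open chromatin was compared between mouse cortex at postnatal day 7 (P7) and postnatal day 21 (P21), using the 4 P7 libraries and the 4 P21 libraries of a series of 22 libraries from mouse and marmoset. The libraries were chosen by the age recorded for each cell in the authors' cell table, and they held 14279 of the 19145 mouse cells, 6127 at P7 and 8152 at P21. Every library came from C57BL/6 wild-type mice, from somatosensory and motor cortex combined, with no treatment named. Age was the labelled difference between the groups, and a number in some library titles, described below, went with it. Nothing in the sources used here says how many animals went into a library or whether libraries came from separate animals, so each p-value measured the spread between these libraries, which may be technical. The P1 libraries of the same table, and the marmoset libraries, were not used for the comparison.

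Single-cell ATAC-seq records where the transposase Tn5 can cut, which happens mostly in open chromatin such as promoters and enhancers. In the plate-based form used here, fixed cells are tagged with barcoded Tn5 in one plate, mixed, and sorted into a second plate whose wells add another barcode, so that a cell is identified by its pair of barcodes. The weeks between P7 and P21 are known in mouse cortex for synapse formation, the maturation of inhibitory cells and the start of myelination. The pyramidal neurons of the cortex send their axons to set targets: callosal projection neurons (CPN) to the other hemisphere, layer IV neurons within the cortex, subcerebral projection neurons (ScPN) to brainstem and spinal cord, and corticothalamic projection neurons (CThPN) to the thalamus. Interneurons that make somatostatin (Sst) or neuropeptide Y (Npy) inhibit their neighbours, and astrocytes are glia that support synapses.

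The table gave 2 values for a cell, its number of reads and its number of peaks with a read, together with a cluster number and the cell type that the authors assigned. It gave no gene-level values, so the type names could not be checked against marker genes, and no sequence or region belongs to any value below. The 7 types named at both ages were CPN, layer IV neurons, ScPN, CThPN, Sst interneurons, Npy interneurons and astrocytes, with 4691 cells at P7 and 7107 at P21. Oligodendrocyte precursors (254 cells) were named at P7 alone. Parvalbumin interneurons (326 cells), myelin-forming oligodendrocytes (337) and newly formed oligodendrocytes (110) were named at P21 alone. A further 1182 P7 cells and 272 P21 cells were named Unknown, a mean share per library of 19.3% ± 1.83 for P7 against 3.94% ± 1.96 for P21 (SD over 4 libraries).

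The libraries formed 2 series with 2 libraries per age in each. The titles of the Pool series began with that word, and those of the numbered series carried a number that differed between the ages, so that within this series the number and the age cannot be told apart. Values are listed below in the order numbered 1, numbered 2, Pool 1, Pool 2. The P7 libraries held 1475, 1431, 1784 and 1437 cells, and the P21 libraries 3407, 2003, 1421 and 1321. The P21 numbered 1 library stood apart, with 35.9 cells per sorted well (highest 50) against 13.8 to 20.9 in the other 7. The study's methods describe sorting fewer cells into each well than this library held. Over all cells the median reads per cell were 3146, 3309, 2551.5 and 3295 at P7, and 3905, 3772, 3539 and 3543 at P21. The ages did not overlap (exact permutation test over libraries, two-sided, p = 0.0286, the smallest that 4 against 4 can give). Of the 28 pairs of libraries, 8 shared between 238 and 618 cell barcodes, because their plates used the same well indices. P7 numbered 2, P7 Pool 2, P21 numbered 1 and P21 Pool 1 had their well indices in common. The indices of P7 numbered 1 and P7 Pool 1 were used at P7 alone. Those of P21 numbered 2 and P21 Pool 2 were used at P21 alone. Among cells with a shared barcode, 13.8% to 16.9% had the same type in both libraries, against 13.8% to 16.4% given by the type shares alone. The log2 reads of these cells were correlated between the libraries in all 8 pairs, pairs across ages included, with r from 0.264 to 0.434. Cells with a shared barcode have a Tn5 barcode and a well index in common, and the part of either in the reads per cell was not tested. They were counted as separate cells.

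Within types, reads per cell lay higher at P21 in the means of 5 of the 7, namely CPN, layer IV, ScPN, Sst and Npy, and lower in CThPN and astrocytes. The libraries of the 2 ages did not overlap in ScPN and Sst. No type passed the test after adjustment over the 7 types (exact permutation test, two-sided, Benjamini-Hochberg, smallest adjusted p = 0.1), while 2 had an unadjusted p below 0.05. At least 4 of the 7 types would have had to reach the smallest possible p for any to pass.

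In ScPN, the layer V output neurons of the cortex, the library medians were 3851, 4536, 3324 and 4031 reads per cell at P7, and 4842.5, 4920, 4732 and 4779.5 at P21. Every P21 library lay above every P7 library, and the P21 libraries lay closer together (3935.5 ± 500.3 against 4818.5 ± 81.4, SD, n = 4). The difference of 0.30 on the log2 scale, 1.23-fold, was larger than the spread between libraries of 0.13 (exact permutation test, p = 0.0286, adjusted p = 0.1). It was 0.22 in the numbered series and 0.38 in the Pool series.

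Sst interneurons had the largest mean difference of the 7 types, close to that of Npy interneurons. Their medians were 3022.5, 2553, 2367 and 2905 reads per cell at P7, and 4262.5, 3225, 4128 and 3226.5 at P21. The highest P7 library lay just below the lowest P21 library. The P21 libraries fell into a high pair, numbered 1 and Pool 1, and a low pair, each with 1 library from each series. The libraries of a pair used the same well indices, which differed between the pairs. A part of the indices in these reads was not tested. The mean was 1.36-fold higher at P21, 0.45 ± 0.19 on the log2 scale (pooled SD over libraries), with an exact permutation p of 0.0286 and an adjusted p of 0.1. The numbered and Pool series gave 0.42 and 0.48. With parvalbumin interneurons, named at P21 alone, counted with Sst, a choice made after the values were seen, the difference was 0.24 (exact permutation p = 0.114), smaller than those of CPN, ScPN and Npy.

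Npy interneurons, which have fewer reads per cell than the other neuron types named at both ages, overlapped between the ages. Their medians were 1846, 2075, 1500.5 and 1821.5 at P7, and 2577.5, 2248.5, 2025 and 2978 at P21. Only the lowest P21 library fell below the highest P7 library. The log2 difference of 0.43 had an exact permutation p of 0.0571 (adjusted p = 0.1), with 0.30 in the numbered and 0.57 in the Pool series.

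CPN and layer IV neurons, which have their axons within the cortex and its commissures, also overlapped. CPN medians were 4237, 3813, 2729.5 and 3604.5 at P7, and 4498, 4482.5, 4093.5 and 4328 at P21. The P7 Pool 1 library was the lowest of the 8, and the log2 difference of 0.29 (exact permutation p = 0.0571, adjusted p = 0.1) became 0.17 without it. Layer IV medians were 3115, 3526.5, 2718 and 3331 at P7, and 3423, 3464.5, 3734 and 3830.5 at P21. The log2 difference was 0.19 (exact permutation p = 0.0857, adjusted p = 0.12). It was 0.06 in the numbered series, where the ages overlapped, and 0.33 in the Pool series, where they did not. Without P7 Pool 1 it was 0.12.

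CThPN, the layer VI neurons that project back to the thalamus, had medians of 4650, 4813, 3475 and 5644.5 at P7, and 4317, 4096.5, 3853.5 and 3943 at P21. The P7 libraries spanned the whole P21 range, and the log2 difference of -0.18 was smaller than the spread of 0.21 between libraries (exact permutation p = 0.286). It was -0.31 without P7 Pool 1 and -0.08 without P7 Pool 2. Astrocytes had the fewest reads in all 8 libraries, with medians of 1480.5, 1615, 1483 and 1424 at P7, and 1408, 1530.5, 1409.5 and 1416 at P21. Their difference of -0.06 was smaller than the spread of 0.07 (exact permutation p = 0.286). Astrocytes also lay close to the lower limit that the authors put on reads per cell, since the lowest read count in a library was between 1000 and 1003. Between 43.9% and 59.4% of astrocytes in a P7 library, and 50.0% to 73.7% in a P21 library, had fewer than 1500 reads, against 1.59% to 13.1% in the libraries of the 4 pyramidal types. Npy interneurons had 20.9% to 50.0% of their cells under 1500 reads at P7 and 10.3% to 32.0% at P21, and Sst interneurons had at most 23.0%.

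**Figure D1:**
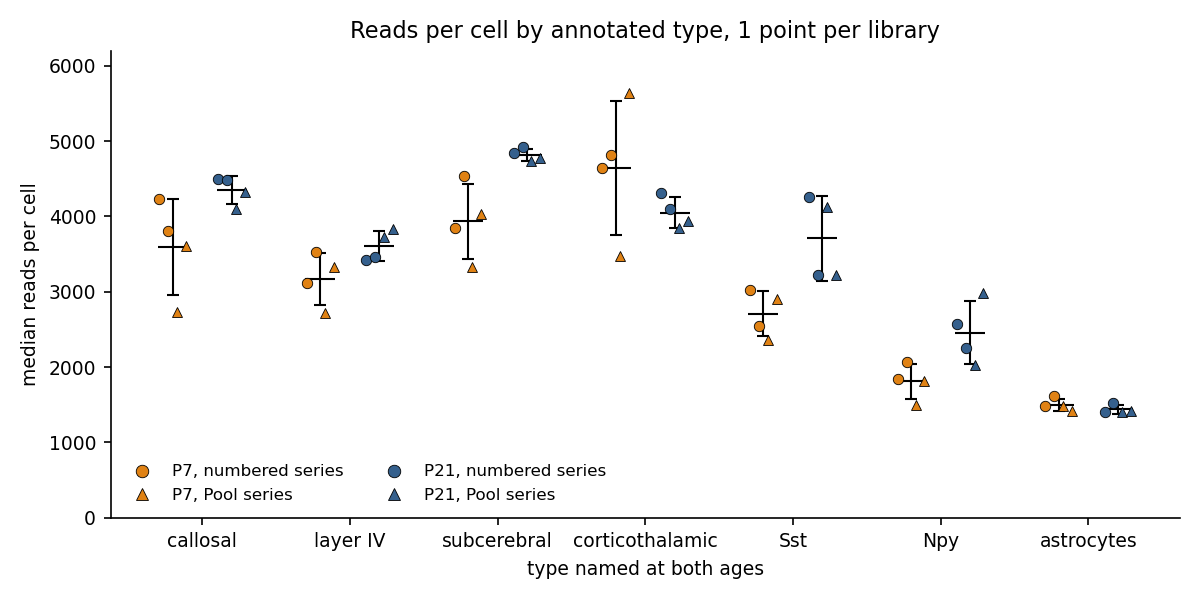
Median reads per cell (vertical axis) of the 7 types named at both ages, with 1 point per library, circles for the numbered and triangles for the Pool series, and a black line and bar for the mean and SD of 4 libraries. The P7 and P21 points are apart in ScPN and in Sst interneurons, and the astrocytes of all 8 libraries sit between 1408 and 1615.

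The order of the types differed between the ages at its upper end. CThPN had the highest median reads of the 7 types in 4 of 4 P7 libraries, and ScPN had it in 4 of 4 P21 libraries. At P21 CThPN ranked 3 or 4. Npy interneurons ranked 6 and astrocytes 7 in every library of both ages, so the lower end of the order was shared. To set aside depth that a whole library has in common, each type's log2 median was taken relative to the mean over the 7 types of its own library. On this relative scale CThPN lay at 0.69 ± 0.16 at P7 and 0.31 ± 0.05 at P21, and astrocytes at -0.92 ± 0.16 and -1.18 ± 0.08 (SD, n = 4). Both differences, -0.38 and -0.26, left no overlap between the ages and had an exact permutation p of 0.0286, with an adjusted p of 0.1. No type passed after adjustment, and the other 5 overlapped between the ages. A relative value of one type depends on the values of the others, so the 7 differences sum to 0 and are not independent. In absolute reads the differences were -0.18 in CThPN and -0.06 in astrocytes, each smaller than its spread between libraries. Astrocyte medians also lay near the lower limit on reads at both ages.

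CThPN cells of the 2 ages were not made up of the same clusters. At P7, 176 of the 304 CThPN came from cluster 18, with a median of 5453.5 reads over its cells, and 128 from cluster 20, with 3495. At P21, 900 of the 1435 CThPN came from cluster 7 with a median of 3559 reads, 127 from cluster 20 with 3885, 224 from cluster 21 with 6330 and 184 from cluster 22 with 5850. Over pooled cells, clusters that carried the CThPN name at the same age thus lay further apart in reads than the ages did. Within cluster 20, which was named CThPN at both ages, the library medians were 3311, 4457, 3385.5 and 3603.5 at P7, and 4198, 4717, 2710 and 3361.5 at P21. They overlapped and had nearly the same mean (log2 difference 0.00 ± 0.29, exact permutation p = 1), on 21 to 44 cells per library. The difference was 0.21 in the numbered and -0.21 in the Pool series.

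ScPN were also split at P21, into cluster 5 with 1090 cells and a median of 5096.5 reads and cluster 24 with 118 cells and 2983.5 reads. At P7 all 846 ScPN were in cluster 8, with a median of 3858.5 reads. Cluster 24 held 8.92% to 11.4% of the ScPN of each P21 library, so the split was alike in the 4 libraries.

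Peaks per cell followed reads per cell. The log2 differences in median peaks were 0.31 in CPN, 0.20 in layer IV, 0.29 in ScPN, -0.15 in CThPN, 0.46 in Sst, 0.43 in Npy and -0.07 in astrocytes. As for reads, 5 of 7 means lay higher at P21, ScPN and Sst were the types with no overlap, and no type passed after adjustment (exact permutation test, smallest adjusted p = 0.1, 2 types with unadjusted p = 0.0286). In ScPN the median peaks were 2242, 2566.5, 1731 and 2195.5 at P7, and 2643, 2677, 2613.5 and 2636 at P21. In Sst interneurons they were 1674.5, 1421.5, 1222 and 1589.5 at P7, and 2290, 1796, 2266.5 and 1763.5 at P21, and the log2 difference became 0.26 with parvalbumin cells counted with Sst (exact permutation p = 0.114).

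To ask whether the peaks differed at a given depth, log2 peaks were fitted against log2 reads with 1 slope per type and 1 level per library, and the level was read at the median reads of the type. The slopes were between 0.966 in astrocytes and 0.972 in Sst interneurons, just under proportional. At matched reads, CPN had 2199, 2209, 2043 and 2196 peaks at P7, and 2199, 2206, 2209 and 2209.8 at P21. The P7 Pool 1 library lay below all others, and the other 7 lay within 0.01 of each other on the log2 scale. This held in every type: the level of P7 Pool 1 was the lowest of the 8 libraries in all 7 types, between 0.03 and 0.11 below the median of the 8 on the log2 scale, a mean of 0.941-fold. That library also had 51.9 to 53.2 peaks per 100 reads in the median cell of each type, against 53.9 to 56.2 in the other 7.

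The age differences at matched reads were between -0.02 and 0.03 on the log2 scale. None passed, and none had an unadjusted p below 0.05 (exact permutation test, smallest adjusted p = 0.533). Without P7 Pool 1 the log2 differences were 0.00348 in CPN, -0.00481 in layer IV, -0.00291 in ScPN, -0.00181 in CThPN, -0.00275 in Npy and 0.00508 in Sst, so that the sign turned in layer IV, ScPN, CThPN and Npy. Astrocytes had the lower mean at P21 with and without that library. Their levels were 822, 815, 782 and 816 peaks at P7, and 800.1, 801, 793 and 797 at P21, so that 3 of 4 P7 libraries lay above all P21 libraries. Without P7 Pool 1 the astrocyte difference was -0.04, 0.975-fold, with an exact permutation p of 0.0286 and an adjusted p of 0.2. That library was left out for its low place in these same values. With all 8 libraries the astrocyte difference was -0.02 (exact permutation p = 0.229), on 16 to 37 astrocytes per P21 library. At a given number of reads, the neuron types therefore had peak numbers at P7 and P21 that differed by less than the single P7 Pool 1 library differed from the rest.

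**Figure D2:**
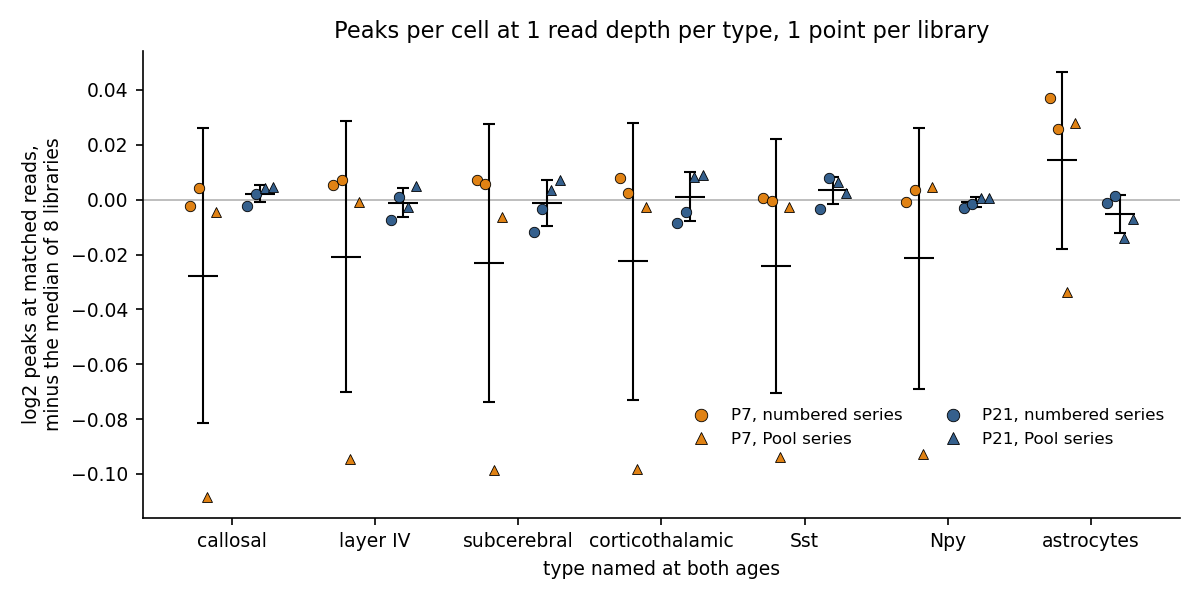
Peaks per cell at the median reads of each type, as the log2 difference from the median of the 8 libraries, with 1 point per library (circles numbered, triangles Pool series) and a black line and bar for the mean and SD of 4 libraries. The P7 Pool 1 triangle is the lowest point in all 7 types, and the P7 bars are long because of it.

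The ratios between cell types were limited to the 7 types named at both ages. Among the pyramidal neurons, CPN, layer IV neurons and ScPN had ratios to each other that overlapped between the ages, whereas CThPN were more numerous relative to each of these at P21. Sst interneurons were fewer relative to Npy interneurons, and both together were fewer relative to pyramidal neurons. In 5 of the 9 ratios the 2 ages did not overlap, each with an exact permutation p of 0.0286 and an adjusted p of 0.0514. None of the 9 passed at 0.05, since at least 6 of 9 would have had to reach the smallest possible p. The ratios share cell types, so they are not independent of each other.

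There were 79.2 ± 4.29 layer IV neurons per 100 CPN at P7 and 76.5 ± 3.37 at P21 (SD, n = 4), a log2 difference in CPN to layer IV of 0.05 with an exact permutation p of 0.343. ScPN per 100 CPN came to 55.6, 55.8, 54.9 and 68.9 at P7, and 61.6, 59.2, 54.4 and 46.5 at P21. The P7 Pool 2 library was the highest and the P21 Pool 2 library the lowest, and the log2 difference in CPN to ScPN was 0.09 (exact permutation p = 0.486). It was -0.12 in the numbered and 0.29 in the Pool series. Layer IV to ScPN behaved alike, with 0.04 over the 8 libraries (exact permutation p = 0.771), -0.19 in the numbered and 0.27 in the Pool series. These 3 ratios were thus within the spread between libraries, and 2 of them pointed in opposite directions in the 2 series.

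CThPN per 100 CPN were 22.6, 18.7, 16.0 and 28.6 at P7, and 79.7, 65.7, 58.3 and 52.7 at P21. The lowest P21 library stood well above the highest P7 library, and the means were 21.5 ± 5.46 and 64.1 ± 11.7 (SD, n = 4), 3.02-fold apart. The log2 difference in CPN to CThPN was -1.59 ± 0.31 (pooled SD), -1.81 in the numbered and -1.37 in the Pool series. Against ScPN, there were 36.2 ± 5.92 CThPN per 100 at P7 and 115 ± 9.88 at P21, and against layer IV neurons 27.1 ± 6.74 and 83.6 ± 13.04. The log2 differences were -1.68 in ScPN to CThPN and -1.64 in layer IV to CThPN. All 3 ratios hold the same CThPN counts, so they describe a single difference. Within P21, the numbered 1 library had the most CThPN, and it held 134 of the 184 cells of cluster 22, which made up 19.4% of its CThPN (95% exact binomial interval 16.6% to 22.6%, counting error only) against 4.76% to 8.91% in the other P21 libraries, whose intervals reached at most 12.4%. The same library had the most cells per sorted well, and a part of this in its CThPN was not tested. Without P21 numbered 1 the CPN to CThPN difference was -1.48.

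The CThPN difference depended on which cells carried the name. At P7, cluster 9 held 834 cells, all of them named Unknown, and no P21 cell was in that cluster. It held 192, 171, 272 and 199 cells of the P7 libraries, or 19.6 to 24.7 per 100 named pyramidal neurons. Counting cluster 9 as CThPN, a choice made for comparison with no marker values to bear on it, gave 79.1, 69.4, 76.4 and 90.4 CThPN per 100 CPN at P7, against the same 79.7, 65.7, 58.3 and 52.7 at P21. The log2 differences then had the opposite sign, with 0.31 in CPN to CThPN, 0.26 in layer IV to CThPN and 0.22 in ScPN to CThPN, and the ages overlapped (exact permutation p = 0.114, 0.171 and 0.0571). When CThPN were limited to cluster 20, a choice made after these values were seen, there were 10.3, 8.01, 7.11 and 10.6 per 100 CPN at P7, and 5.09, 7.55, 5.83 and 6.16 at P21. The log2 differences were again of opposite sign, 0.54, 0.49 and 0.45 (exact permutation p = 0.0571, 0.0857 and 0.0571). A larger number of CThPN relative to other pyramidal neurons at P21 was thus seen in the cells as named. It was not seen in cluster 20, the only cluster named CThPN at both ages. Cluster 9 added cells to P7 alone, and over pooled cells cluster 20 held 42.1% of the CThPN of P7 against 8.85% of those of P21. Each recount could therefore only move the difference towards fewer CThPN at P21. Which count is right was not tested.

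**Figure D3:**
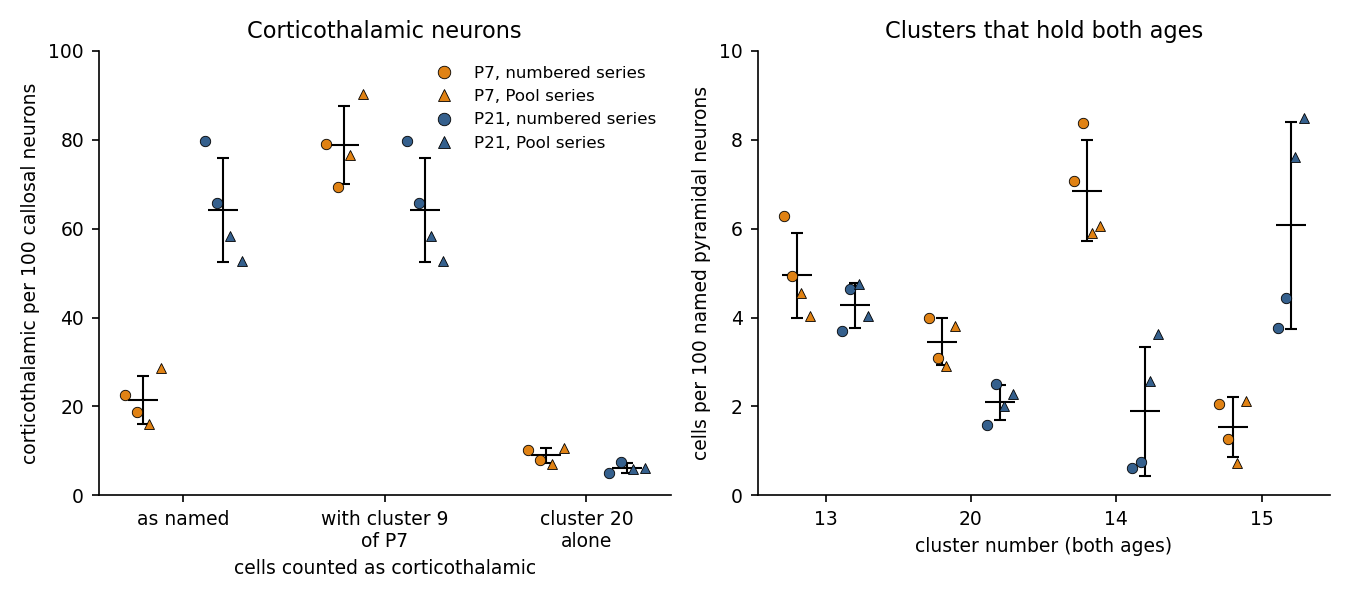
Left, CThPN per 100 CPN as named, with the unnamed P7 cluster 9 added, and in cluster 20 alone; right, cells per 100 named pyramidal neurons in clusters 13 (Npy), 20 (CThPN), 14 and 15 (oligodendrocyte lineage), with 1 point per library (circles numbered, triangles Pool) and a black line and bar for the mean and SD. The P21 points lie above the P7 points only for CThPN as named and for cluster 15, and the ages overlap in cluster 13.

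Among interneurons, Sst cells per Npy cell were 2.47, 3.12, 3.82 and 3.06 at P7, and 1.59, 1.18, 1.20 and 1.28 at P21. Every P21 library lay below every P7 library, with a log2 difference of -1.24 ± 0.23 (pooled SD), -1.02 in the numbered and -1.46 in the Pool series. Npy interneurons made up 6.28, 4.93, 4.54 and 4.04 cells per 100 named pyramidal neurons at P7, and 3.69, 4.63, 4.76 and 4.03 at P21, which overlapped. Sst interneurons made up 15.5, 15.4, 17.3 and 12.3 per 100 at P7, and 5.86, 5.44, 5.71 and 5.17 at P21, which lay far apart. The Sst count was thus the one that differed between the ages in this ratio. Parvalbumin interneurons, which arise in the same embryonic region as Sst interneurons and mature late, were named at P21 alone, with 121, 88, 61 and 56 cells. When these were counted with Sst at P21, also a choice made after the values were seen, the ratio to Npy was 2.77, 2.36, 2.42 and 2.72 at P21, of which 2.36 and 2.42 lay just below the lowest P7 library and the others within the P7 range. The log2 difference became -0.26 (exact permutation p = 0.0857), against -1.24 for the types as named. Parvalbumin cells were added to P21 alone, so this recount could only raise the P21 ratio. Which count is right was not tested.

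Sst and Npy interneurons together came to 21.8, 20.3, 21.9 and 16.4 per 100 pyramidal neurons at P7, and 9.54, 10.1, 10.5 and 9.20 at P21. The P21 libraries lay within a narrow range below all P7 libraries (20.1 ± 2.58 against 9.82 ± 0.56, SD, n = 4), with a log2 difference of -1.02. The series gave -1.10 and -0.95. The difference was -0.40 with parvalbumin cells counted with Sst and -0.78 with CThPN limited to cluster 20, and in both cases the ages still did not overlap (exact permutation p = 0.0286). The ratio thus depended on which cells were counted as interneurons and as pyramidal neurons. Parvalbumin cells were named at P21 alone. Over pooled cells, cluster 20 held 42.1% of the CThPN of P7 against 8.85% of those of P21. Each recount could therefore only raise the ratio of P21 relative to that of P7.

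Astrocytes per 100 pyramidal neurons were 6.85, 6.54, 4.27 and 3.59 at P7, and 0.687, 1.00, 2.86 and 3.83 at P21. The numbered and Pool libraries of P21 were far apart, and the highest P21 library lay above the lowest P7 library. The log2 difference of -1.63 ± 0.90 had an exact permutation p of 0.0571 (adjusted p = 0.0857), and consisted of -3.01 in the numbered series and -0.24 in the Pool series. The P21 libraries held 19, 16, 30 and 37 astrocytes, so a counting error of several cells weighs on each value. Its reads per cell lay near the lower limit, and when cells below 3399 reads, the median over all cells of the 8 libraries, were left out, there were 0 astrocytes in 3 libraries and at most 0.996 per 100 pyramidal neurons in the others. A lower limit than that of the authors could not be tried on the cells in the table.

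**Figure D4:**
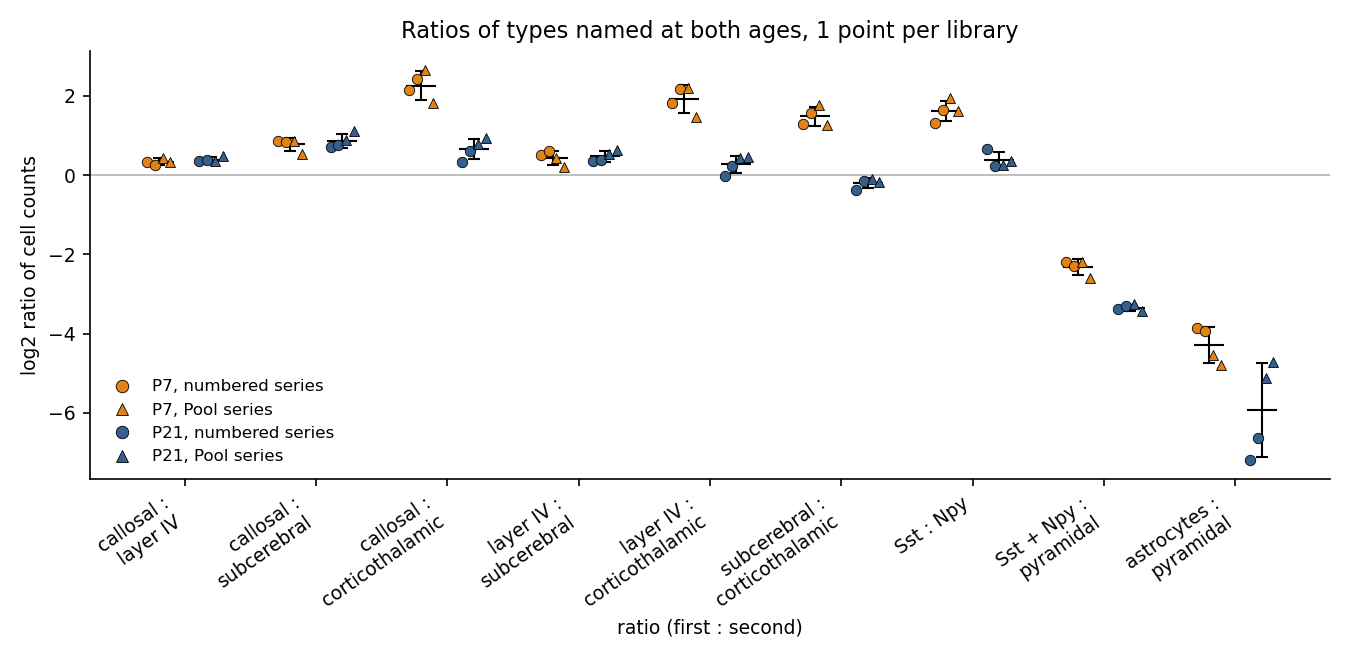
The 9 ratios between types named at both ages, on a log2 scale, with 1 point per library (circles numbered, triangles Pool series) and a black line and bar for the mean and SD of the log2 values of 4 libraries. The ages are apart in the 3 ratios to CThPN, in Sst to Npy and in Sst plus Npy to pyramidal, and the P21 astrocyte points split by series.

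Clusters that held cells of both ages were few among the named types. The 2 ages together occupied 30 clusters, of which 12 held both ages and 7 held at least 20 cells of each, namely clusters 13, 14, 15, 20, 26, 27 and 28. These 7 contained 753 cells (12.3%) of P7 and 961 cells (11.8%) of P21. Only clusters 13 and 20 carried a type name at both ages. Cluster 13 held every Npy interneuron of both ages and cluster 20 held part of the CThPN, so 6.65% of the P7 cells and 5.52% of the P21 cells of the 7 types were in a cluster named at both ages. The cells named CPN, layer IV, ScPN, Sst or astrocyte had no cluster in common between the ages. For these 5 types, a difference between ages compared cells joined by a name and not by a cluster.

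Cluster 13 repeats the Npy values given above, since it is the same cells. Cluster 14 was named oligodendrocyte precursor at P7, with 62, 73, 65 and 54 cells, and Unknown at P21, with 17, 12, 27 and 35 cells. Precursors of this kind divide and give rise to the myelinating cells. The median reads per cell were 1761.5, 2120, 1942 and 2079 at P7, and 1377, 1466.5, 1254 and 1439 at P21. Every P21 library lay below every P7 library, with a mean 0.701-fold of that at P7, -0.51 ± 0.11 on the log2 scale, and both series gave this direction (-0.44 and -0.58). Median peaks gave -0.51 too. With 3 clusters tested, neither passed after adjustment (exact permutation test, p = 0.0286, adjusted p = 0.0857), and 1 cluster of 3 had an unadjusted p below 0.05 for each measure. This direction was opposite to that over all cells, but it was not particular to cluster 14. Over pooled cells the median reads were also lower at P21 in clusters 15 (2066 at P7, 1669 at P21), 26 (1648 and 1300) and 28 (1748 and 1427). They were higher at P21 in clusters 13, 20 and 27. The P21 medians of cluster 14 lay near the authors' lower limit on reads per cell, as those of astrocytes did. There were 6.85 ± 1.14 cluster 14 cells per 100 pyramidal neurons at P7 and 1.89 ± 1.46 at P21.

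Cluster 15 showed the reverse naming. Its P21 cells were named myelin-forming oligodendrocyte, with 104, 71, 80 and 82 cells, and its P7 cells Unknown, with 18, 11, 8 and 19 cells. Myelin-forming oligodendrocytes wrap axons and appear in cortex after the first postnatal week. The cluster made up 1.54 ± 0.67 cells per 100 pyramidal neurons at P7 and 6.08 ± 2.32 at P21, with 3.76 and 4.44 in the numbered and 7.62 and 8.48 in the Pool libraries of P21. A P7 library held under 10 of its cells, so its reads were not tested. Cells of both oligodendrocyte clusters were thus present at both ages, although each name was given at 1 age. Clusters 26, 27 and 28 were Unknown at both ages, with 46, 42 and 43 cells at P7 and 37, 65 and 39 at P21.

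Whether a cluster carried a name went with its size at that age. Of 42 groups of cells of 1 age in 1 cluster, 23 were named and 19 were Unknown. The smallest named group held 102 cells, and 18 of the 19 unnamed groups held 91 cells or fewer. The exception was cluster 9 of P7 with its 834 cells. The study's methods describe leaving out clusters below a minimum size within each age. For oligodendrocyte precursors and myelin-forming oligodendrocytes, a name given at 1 age alone therefore went with unnamed cells of the same cluster at the other age. Clusters 19 and 25, the parvalbumin interneurons and newly formed oligodendrocytes of P21, held no P7 cell.

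**Figure D5:**
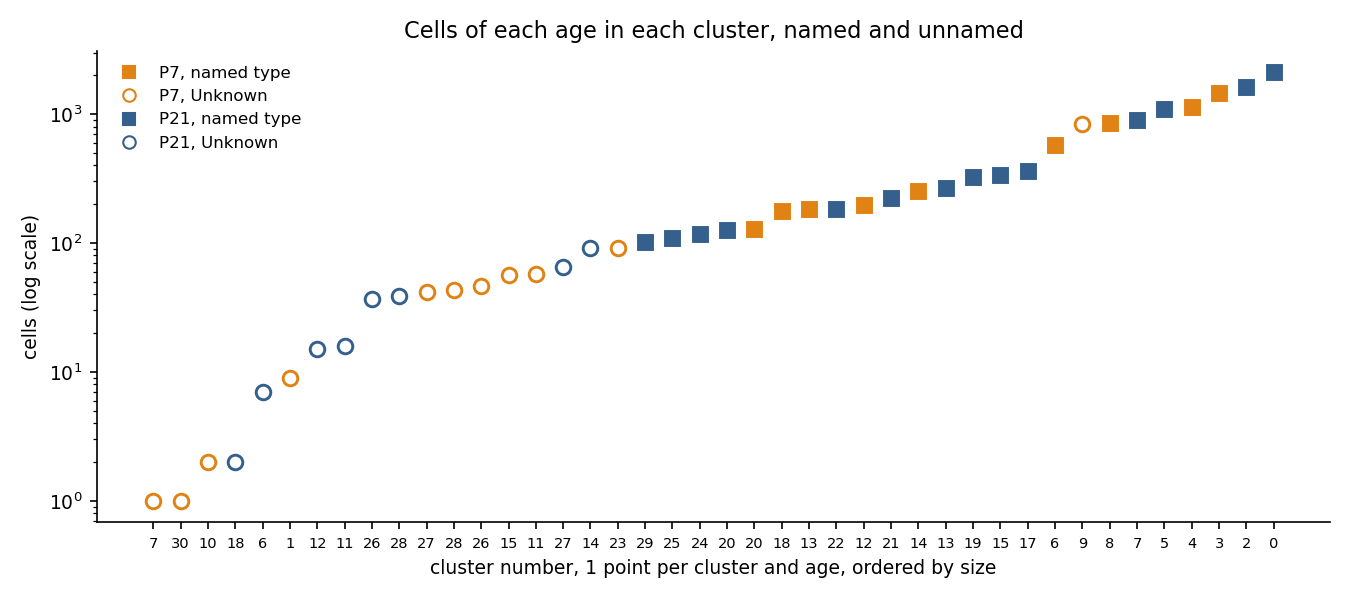
Number of cells (vertical log axis) in each of the 42 groups of 1 age in 1 cluster, ordered by size, with the cluster number below; filled squares were given a type and open circles were named Unknown. The named groups start at 102 cells, and the only open circle above them is cluster 9 of P7 with 834 cells.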

How the data were processed

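The authors trimmed the reads, aligned them with Bowtie2 to mm10 (also in the submitters' processing notes, as is MACS2), removed duplicates with Picard, sampled libraries to a similar depth per cell, called peaks with MACS2 in Scasat, kept cells within limits on reads and peaks, clustered them and assigned types from gene activity. Doublet removal was not described in what was read here. The labels also carry a protocol for sorting td-Tomato neurons, whereas the study describes unfractionated tissue of wild-type animals. Astrocytes and Sst and Npy interneurons were named in every library. A sort could set the shares of types, which was not tested.

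The deposited table held 1 row per cell with 2 counts, reads and peaks with a read, not normalized by the authors. Because libraries were sampled towards a similar depth before deposit, reads per cell are no absolute measure of accessibility. The depth was not even in the deposited cells, with library medians from 2551.5 to 3905 reads. Unknown cells were left out of types and ratios. Medians were taken per library and type, ratios from cell counts per library. Each was tested on log2 values with an exact two-sided permutation test over 4 against 4 libraries, with Benjamini-Hochberg adjustment within 7 types, 9 ratios or 3 clusters and a threshold of 0.05. A cluster was tested where every library held at least 10 cells. Fold values are ratios of geometric means. 

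Named were all 7 shared types, types of 1 age by their counts, all 9 ratios and clusters with at least 20 cells of each age; clusters 5, 7, 8, 9, 18, 19, 21, 22, 24 and 25 were named after their values were seen. Types and ratios were chosen with earlier results of these data known. Type counts differed by less than the sampling noise between the P7 numbered libraries (chi-square p = 0.68) and between the P21 Pool libraries (p = 0.532), and by more than that between the P7 Pool libraries (p = 0.000912) and between the P21 numbered libraries (p = 0.00353). The agreeing libraries used different well indices and were kept apart, and averaging them was an alternative. Replicate numbers were not taken as pairs. The functions were tested on simulated data. Python 3.11.15, numpy 2.4.6, pandas 2.3.3 and scipy 1.17.1 were used.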

Additional observations from a re-analysis of the deposited data

Results flagged for a closer look

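A sample far from the other 3 of its age was found in 9 of the 86 groups of 4 libraries looked at, where chance gives about 1 in 20. In 7 of these it was the P7 Pool 1 library in peaks at matched reads, with 2043 peaks in CPN, 1768 in layer IV, 2258 in ScPN, 2151 in CThPN, 1545 in Sst, 1133 in Npy and 782 in astrocytes. These 7 are one library measured in 7 types, and its part in the age differences is given by the values without it above. The other such samples were P21 numbered 2 in astrocyte reads, with a median of 1530.5 from 16 cells, and P7 Pool 2 with 1.45 CPN per ScPN.

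The age difference pointed in opposite directions in the 2 series, with no overlap of the ages within either series, in 4 measures. In peaks at matched reads it was, on the log2 scale, -0.0140 in the numbered and 0.0576 in the Pool series in ScPN, and -0.0117 and 0.0589 in CThPN. The Pool levels in ScPN were 2258 and 2407 peaks at P7, and 2423 and 2429 at P21. Those in CThPN were 2151 and 2298 at P7, and 2315 and 2316 at P21. Most of these Pool differences thus came from the P7 Pool 1 library. In CPN to ScPN the age difference was -0.12 and 0.29, and in layer IV to ScPN -0.19 and 0.27. The difference between the series was not tested.

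Cells named Unknown were left out of the types. In clusters that held both ages, these included 91 P21 cells of cluster 14 and 56 P7 cells of cluster 15, and the largest unnamed group was cluster 9 with 834 P7 cells.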

How the results depend on the processing

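No type passed in reads, peaks, matched peaks or relative reads under any alternative run. Leaving out 1 library at a time gave 0 to 6 ratios past the threshold, the 6 without P21 Pool 2, and 0 to 2 clusters in reads, the 2 without P21 Pool 1. With 3 against 4 libraries the smallest p was again 0.0286. The direction turned in the log2 differences of matched peaks of layer IV (-0.00481 to 0.0289), ScPN (-0.00291 to 0.0318), CThPN (-0.00181 to 0.0338) and Npy (-0.00275 to 0.0290), relative reads of layer IV (-0.0410 to 0.0295), layer IV to ScPN (-0.0404 to 0.0913), and cluster 20 in reads (-0.121 to 0.146) and peaks (-0.0763 to 0.160). It also turned in matched CThPN peaks averaged over bins of reads (-0.0523), in relative layer IV reads with parvalbumin cells counted with Sst (0.0178), and in layer IV to ScPN when only cells at or above the median reads (-0.0113) or median peaks (-0.0335) were counted. The ratios of CPN, layer IV and ScPN to CThPN turned with cluster 9 counted as CThPN (0.31, 0.26, 0.22) and with cluster 20 alone (0.54, 0.49, 0.45). Causes were not tested. The astrocyte ratio could not be given at these limits on reads or peaks, because a library held 0 astrocytes.

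Replicate numbers did not pair the libraries: same-numbered libraries of the 2 ages deviated from their means with correlations of 0.01, -0.60, -0.50 and -0.44, and none correlated best with its own number. With a replicate block the difference in CPN to CThPN stayed -1.59 with an exact permutation p of 0.125, the smallest that 4 pairs allow, so no block result could pass. Series as a stratum (smallest p 0.0556) and agreeing libraries averaged (smallest p 0.1) could not pass either.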
